A study of Mus musculus with 8 samples.

Results

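The interferon regulatory factors (IRFs) are a family of DNA-binding proteins, and 8 genes of it (Irf1, Irf2, Irf3, Irf4, Irf5, Irf7, Irf8 and Irf9) are described here in macrophages sorted from mouse breast tumours. The members were taken as every probe that is not a control and whose accession belongs to one of these genes, which gave 11 probes. They stand for 8 of the 20851 genes tested. The tumours grew from PyMT breast cancer cells implanted orthotopically into C57BL/6 mice, and the macrophages were isolated about 21 days later as cells positive for F4/80 and CD45. In the WT group the host mice were wild type. In the KO group the hosts lacked the transcription factor ATF3, and both groups received PyMT cells, whose Atf3 genotype the labels do not give. Each group has 4 samples, numbered 1 to 4 in each, and each sample was read on its own 1-colour array. The labels do not say whether samples came from separate or pooled mice, and a p-value here covers only how these samples spread, which may be technical.

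IRFs bind interferon response elements in DNA and set how cells make interferons and answer to them. IRF3 and IRF7 are activated by kinases downstream of nucleic acid sensors and switch on type I interferon genes. IRF9 is the DNA-binding part of the complex ISGF3, which carries the type I interferon signal to its target genes. IRF1 is induced by interferon gamma and activates, IRF2 mostly represses the same elements, and IRF4, IRF5 and IRF8 act in myeloid and lymphoid cells. In macrophages IRF5 is linked to inflammatory cytokines, IRF4 to alternative activation, and IRF8, often with the partner PU.1, to the development of the lineage.

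Several members are themselves genes that respond to interferon, and for that reason the promoters of the family were searched for motifs. Only windows with a match are printed. Whether the motifs have a part in the levels described below was not tested. RefSeq sequences of GRCm38.p6 were searched on both strands over the 250 bases before each annotated start, in 11 windows of all 8 genes, for 6 motifs. Capitals mark the matches, and each sequence ends before the most upstream annotated start of its gene. Irf1 (chr11:53769764-53770013, plus strand) and Irf8 (chr8:120736108-120736357, plus strand) hold the letters of the gamma-activated site, TTCNNNGAA, an element of genes that answer to interferon gamma. Irf2 (chr8:46739495-46739744, plus strand) holds that motif too, and in its longer capital run the interferon-stimulated response element (GAAA on each side of 2 free bases) overlapping the composite element of PU.1 and IRF proteins (GGAA, 2 free bases, GAAA). Irf7 (chr7:141266500-141266674, minus strand) holds TGACG, the short form of the site that ATF and CREB proteins such as ATF3 bind.
Irf1: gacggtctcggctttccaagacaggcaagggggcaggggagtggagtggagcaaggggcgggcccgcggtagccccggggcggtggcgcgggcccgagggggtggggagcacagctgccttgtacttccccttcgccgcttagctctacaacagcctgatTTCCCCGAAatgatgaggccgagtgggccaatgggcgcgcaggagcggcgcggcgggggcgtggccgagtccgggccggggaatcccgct
Irf8: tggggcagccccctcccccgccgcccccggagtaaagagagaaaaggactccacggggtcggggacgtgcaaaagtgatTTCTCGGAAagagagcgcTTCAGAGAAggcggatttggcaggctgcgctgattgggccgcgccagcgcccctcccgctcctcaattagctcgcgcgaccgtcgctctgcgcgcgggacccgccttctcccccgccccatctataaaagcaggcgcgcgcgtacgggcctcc
Irf2: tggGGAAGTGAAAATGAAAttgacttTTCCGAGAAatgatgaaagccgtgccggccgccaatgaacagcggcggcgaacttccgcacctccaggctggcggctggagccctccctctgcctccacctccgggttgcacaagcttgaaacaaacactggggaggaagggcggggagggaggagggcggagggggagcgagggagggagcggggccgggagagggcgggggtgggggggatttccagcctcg
Irf7: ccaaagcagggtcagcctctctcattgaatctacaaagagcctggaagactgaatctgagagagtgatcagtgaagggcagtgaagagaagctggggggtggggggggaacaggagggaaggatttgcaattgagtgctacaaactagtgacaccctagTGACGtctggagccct
Of 32851 promoter windows of the same length, 7.02% held TTCNNNGAA, 2.98% the interferon-stimulated response element, 2.3% the composite element and 17.8% TGACG. Among the 11 Irf windows these were in 3, 1, 1 and 1. No motif was matched in 7 of the 11, among them every window of Irf3, Irf4, Irf5 and Irf9. The match in Irf1 begins at −90 relative to its start. The TGACG match in Irf7 begins at −91 relative to an annotated start further downstream than the one at which the printed sequence ends. The full ATF and CREB site TGACGTCA, held by 1.55% of all windows, and the AP-1 site TGANTCA, held by 6.75%, were in none of the 11 windows. A match is a description of the letters and not a measured binding site.

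All 88 readings of the 11 probes were well above background, at 8.08 to 353 times the local background, and 0 were saturated or marked as outliers. Levels are given as log2 of the processed signal minus the 75th percentile of that array, so that 1 unit is a 2-fold change. That percentile lay between 619 and 927 intensity units, and 2 slides held 4 arrays each, numbers 1 and 2 of both genotypes being on slide 1 and numbers 3 and 4 on slide 2. Different probes bind with different strength, so levels are compared between samples and not between genes. Atf3 itself was not lower in the KO samples, at 4.86 to 5.52 against 4.51 to 4.99 in the WT samples, and because the sources used here do not place its probe against the deleted part, this does not check the genotype labels. Macrophage markers were bright in every array, among them Apoe, C1qc and C1qb, with means of 7.59, 6.47 and 6.31 in the WT samples. Keratin genes of the tumour epithelium were also well above background, with Krt18 at 3.92 ± 1.27 in the WT and 3.99 ± 1.19 in the KO samples (SD, n = 4 each). In sorted bulk samples such as these, fewer cells of a type and less RNA per cell cannot be told apart.

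No Irf gene differed between the macrophages of WT and KO hosts beyond the spread of the samples. Of the 8 genes, 0 had a limma adjusted p under 0.05 (0% of all 20851 genes did) and 0 had an unadjusted p under 0.05 (3.34% of all genes did). With the replicate number as a block, 0 of the 8 had an unadjusted p under 0.05, against 7.56% of all genes. In 0 of the 8 were the groups free of overlap, against 2.12% of all genes. Fitted differences were above 0 for 4 of the 8 (48.8% of all genes), and their median was 0.021, beside −0.0074 over all genes tested. Under alternatives they were above 0 for 8 of 8 with normexp background correction (38.5% of all genes) and with scaling to Ptprc (63.4% of all genes). The typical size of a difference was small, with a median of 0.069 regardless of sign against 0.18 over all genes. The limma adjusted p was 0.9998 for each member, and the exact permutation p ranged from 0.457 to 0.971, where 0.0286 is the smallest that 4 against 4 allows. The 95% intervals of Irf1, Irf2, Irf3, Irf8 and Irf9 excluded a 2-fold change either way, as did those of 51.5% of all genes. Those of Irf4, Irf5 and Irf7 did not. Blocking on the replicate number gave intervals of −0.41 to 0.24 for Irf5 and −0.10 to 0.69 for Irf7. With that block all but the interval of Irf4 (−0.84 to 1.28) excluded a 2-fold change, and the share over all genes was not counted.

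**Figure D1:**
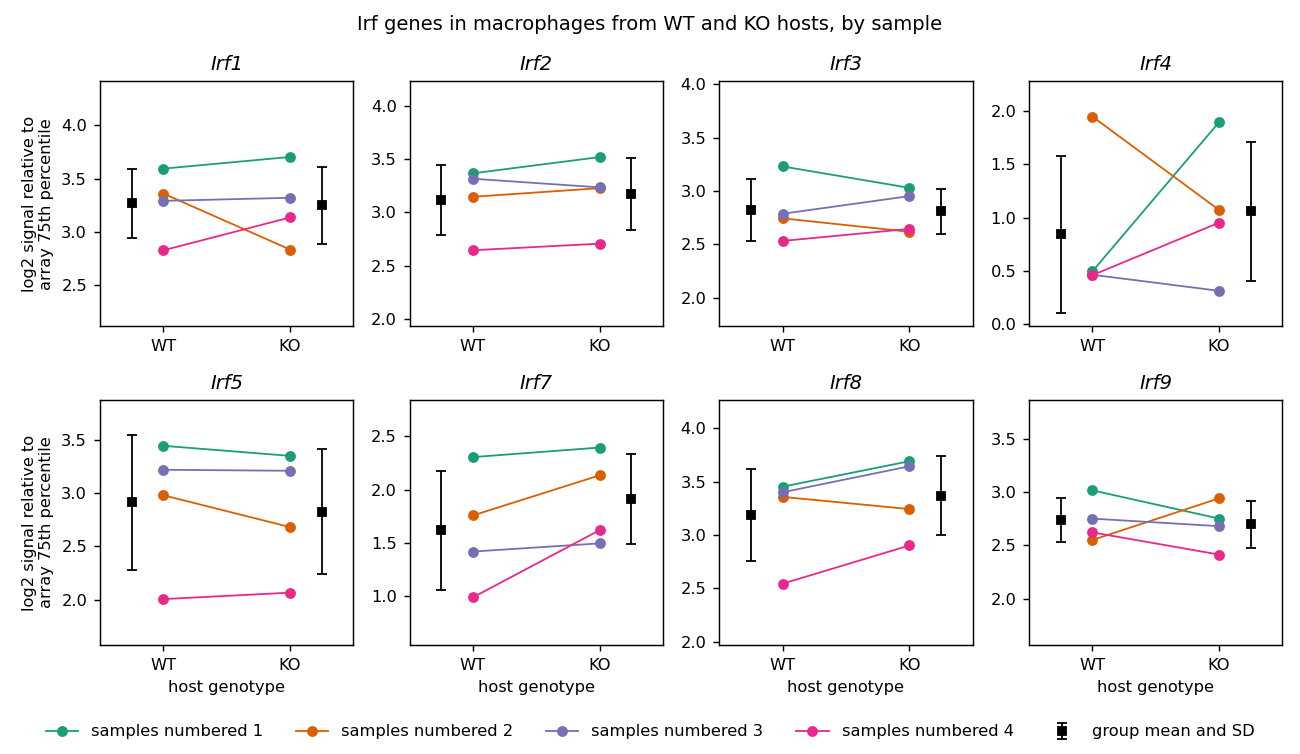
Level of each Irf gene (log2 signal relative to the array's 75th percentile, vertical axes all spanning the same width) in WT and KO samples, with lines joining samples of the same number and squares showing the group mean with its SD (n = 4). The groups overlap for every gene, and the samples numbered 4 are the lowest of both groups for Irf2, Irf5 and Irf8.

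Irf1 and Irf2, the activator and the repressor that compete for the same elements, had nearly equal group means. Irf1 read 3.59, 3.36, 3.29 and 2.83 across WT samples 1 to 4, and 3.70, 2.84, 3.32 and 3.14 across KO samples 1 to 4. The highest value came from KO sample 1 and the lowest from WT sample 4, and the groups overlapped along nearly their whole length. The means were 3.27 ± 0.32 and 3.25 ± 0.36 (SD, n = 4 each), a log2 difference of −0.020 ± 0.25 (standard error) with a 95% interval from −0.60 to 0.56. Its second probe gave 0.93 ± 0.28 and 1.03 ± 0.08, a difference of 0.097 with the opposite sign (0.19 standard error). Irf2 read 3.37, 3.15, 3.32 and 2.65 across WT samples 1 to 4, and 3.52, 3.23, 3.24 and 2.71 across KO samples 1 to 4. Both samples numbered 4 lay well below the other 6, while samples with the same number differed by at most 0.15. The log2 difference of the Irf2 means was 0.053 ± 0.25 (standard error), and its 95% interval ran from −0.51 to 0.62.

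Irf3 and Irf7 encode the factors that start the type I interferon response, IRF3 being made in most cells at a steady level and IRF7 being induced by interferon. Irf3 read 3.23, 2.74, 2.79 and 2.53 across WT samples 1 to 4, and 3.03, 2.62, 2.95 and 2.65 across KO samples 1 to 4. It was highest in both samples numbered 1, with KO values inside the WT range, and its log2 difference was −0.012 (standard error 0.21, 95% interval −0.49 to 0.47). Irf7 read 2.30, 1.76, 1.42 and 0.99 across WT samples 1 to 4, and 2.39, 2.13, 1.496 and 1.62 across KO samples 1 to 4. It was the member with the smallest unadjusted p and higher in the KO sample of 4 of 4 same-numbered pairs, by 0.090, 0.38, 0.077 and 0.63, although the groups overlapped. The means were 1.62 ± 0.56 and 1.91 ± 0.42 (SD, n = 4 each), a difference of 0.29 ± 0.33 (standard error), which is 1.23-fold, with a 95% interval from −0.48 to 1.06. It did not pass (limma adjusted p = 0.9998, exact permutation p = 0.457, and 0.724 for the limma adjusted p with the replicate number as a block). Without WT sample 4 the Irf7 difference was 0.084, and it was 0.52 without WT sample 1. All 4 samples on slide 1 were above all 4 on slide 2, and within each slide the difference was 0.23 and 0.35.

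Irf9, whose protein brings ISGF3 to its target genes, varied least of the family by the brightest probe of each gene. It read 3.02, 2.55, 2.75 and 2.62 across WT samples 1 to 4, and 2.75, 2.94, 2.68 and 2.41 across KO samples 1 to 4. The 8 values lay within 0.60 of each other, with WT sample 1 highest and KO sample 4 lowest. The means were 2.73 ± 0.21 and 2.70 ± 0.22 (SD, n = 4 each), with a difference of −0.038 ± 0.19 (standard error) and a 95% interval from −0.47 to 0.39. A second, dimmer Irf9 probe gave −0.027, and its 8 values spanned 0.91. Those of the second Irf1 probe spanned 0.59. KO sample 2 was among the highest for Irf9, as for Irf7, while KO sample 1, the highest for Irf7, was near the middle for Irf9. The correlation of Irf9 with Irf7 over the 8 samples was 0.57.

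Irf8 and Irf5, both strongly read in these macrophages, were lowest in the samples numbered 4. Irf8 read 3.45, 3.36, 3.40 and 2.54 across WT samples 1 to 4, and 3.69, 3.24, 3.64 and 2.90 across KO samples 1 to 4. WT sample 4 lay apart from the other WT samples, and the means of 3.19 ± 0.43 and 3.37 ± 0.37 (SD, n = 4 each) differed by 0.18 (standard error 0.28, 95% interval −0.47 to 0.83). Its second probe showed the same order of low samples and the same size of difference, 0.18. Without WT sample 4 the sign of the Irf8 difference turned, to −0.034. Irf5 read 3.44, 2.98, 3.22 and 2.00 across WT samples 1 to 4, and 3.35, 2.68, 3.21 and 2.07 across KO samples 1 to 4. Both samples numbered 4 lay below every other sample, and same-numbered samples differed by at most 0.30. The means were 2.91 ± 0.63 and 2.83 ± 0.58 (SD, n = 4 each), a difference of −0.085 ± 0.40 (standard error) with a 95% interval from −1.01 to 0.84.

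Irf4, which acts in alternative activation of macrophages and in B and T lymphocytes, varied most between samples and followed their numbers least, together with Irf9. It read 0.50, 1.95, 0.47 and 0.46 across WT samples 1 to 4, and 1.90, 1.07, 0.32 and 0.95 across KO samples 1 to 4. WT sample 2 and KO sample 1 stood above the other 6, whose values lay between 0.32 and 1.07. In intensity units the probe read between 873 and 2552. The means were 0.84 ± 0.74 and 1.06 ± 0.65 (SD, n = 4 each), and the difference of 0.22 had standard error 0.45 and a 95% interval from −0.82 to 1.26. Without KO sample 1 the Irf4 difference was −0.063, and without WT sample 2 it was 0.59. Within pairs the KO sample was higher by 1.40 for number 1 and 0.49 for number 4, and lower by 0.88 for number 2 and 0.15 for number 3.

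**Figure D2:**
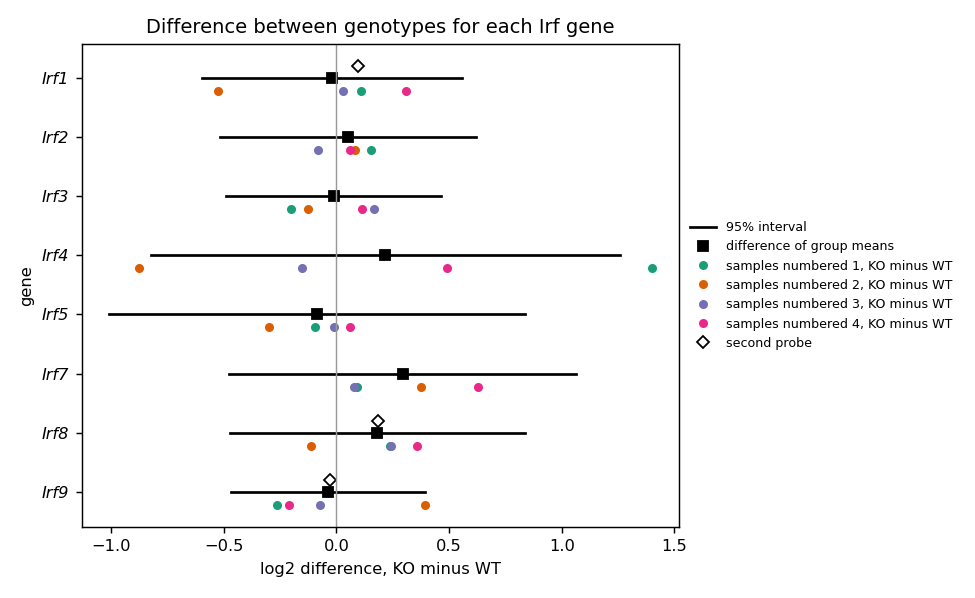
Difference between KO and WT samples for each Irf gene on the log2 scale (squares) with its 95% interval from limma (lines), the difference within each same-numbered pair (coloured points) and the difference by the second probe where there is one (open diamonds). Every interval spans 0, and only Irf7 has its 4 pair differences on one side of 0.

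The sample number, shared by a WT and a KO sample, went with most of the variation of the family, and genotype with less. The number accounted for 97.7% of the sum of squares of Irf5, 97.0% of Irf2, 87.7% of Irf3, 87.6% of Irf8, 83.1% of Irf7 and 72.8% of Irf1, and for 50.1% of Irf9 and 49.98% of Irf4. The median over all genes was 66.3%, and 42.9% is its share of the degrees of freedom. Numbers 1 and 2 were on one slide and numbers 3 and 4 on the other, so the share of the number contains that of the slide. The slide alone accounted for 71.8% in Irf7 and 43.3% in Irf4, and for 14.9% to 34.1% in the other members. Genotype accounted for 10.505% in Irf7, 6.34% in Irf8, 3.13% in Irf4 and 1.08% in Irf9, and for less in the other 4. Its median over all genes was 4.94% and its share of the degrees of freedom 14.3%, so Irf7 and Irf8 lay above the median gene and below that share. WT sample 4 was the lowest of all samples for 6 of the 8 genes, and a sample numbered 1 was the highest for 7. These counts were made for the members only, so they do not set the family apart from other genes. Across the 8 samples Irf4 spanned 3.10-fold, Irf5 2.71-fold, Irf7 2.65-fold and Irf9 1.52-fold from lowest to highest.

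Genes of the sorted cell type were low in the same samples. Ptprc, which encodes CD45, measured 3.78 in WT sample 4 and 3.70 in KO sample 4, and between 4.30 and 4.94 in the other 6. Adgre1, which encodes F4/80, measured 3.33 and 3.47 in those samples and between 3.80 and 4.70 in the others. The 14 macrophage markers tested lay on average 0.60 and 0.61 below their own means in WT and KO sample 4, while the 11 tumour epithelial markers lay 1.08 and 1.80 above theirs. For the epithelial list the log2 of the summed signal ranged from 4.54 to 7.11 (WT) and from 4.69 to 7.25 (KO). For the macrophage list it ranged from 8.87 to 9.69 (WT) and from 8.82 to 9.67 (KO). The part of these markers in the Irf levels was not tested. Set against Ptprc in place of the 75th percentile, 0 of the 8 Irf genes were called, and all 8 differences were above 0, with Irf7 at 0.39 and Irf5 at 0.0083. That scaling moved the median of all genes to 0.086, and 63.4% of all genes were above 0.

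Markers of other cells that use IRFs moved with some members. The 9 B cell markers tested were on average highest in KO sample 1 and WT sample 2, at 0.92 and 0.76 above their own means, which are the samples with the highest Irf4. Of these markers 5 were higher and 4 lower in the KO samples, or 4 and 5 with normexp background correction. The brightest, Cd22 and Cd79b, were at −0.59 and −0.65 in the WT and −0.82 and −0.35 in the KO samples, and 8 of the 9 markers were well above background on every array. The log2 of their summed signal ranged from 0.98 to 1.93 in the WT and from 1.20 to 2.29 in the KO samples. The dendritic cell markers tested, 9 in number, were also highest in KO sample 1 and WT sample 2, at 1.00 and 0.64, followed by WT sample 1 at 0.52, where Irf4 was low. The log2 of their summed signal ranged from 4.55 to 5.65 in the WT and from 4.61 to 5.84 in the KO samples. The 12 T cell markers tested were highest in WT sample 2, KO sample 2 and KO sample 1, at 0.57, 0.53 and 0.51. The 10 monocyte markers were highest in the samples numbered 1, at 0.82 in WT and 0.92 in KO. Irf1, Irf2, Irf3, Irf5 and Irf7 were highest in these samples too, and Irf4, Irf8 and Irf9 were not highest in both. The 8 neutrophil markers tested were also highest there, at 1.72 in WT and 1.88 in KO. Of 7 markers of plasmacytoid dendritic cells, which depend on IRF8, 3 were higher and 4 lower, or 0 and 7 with normexp background correction. The brightest, Tcf4, was at 2.35 in the WT and 2.05 in the KO samples. None of these markers had a limma adjusted p under 0.05, and their part in the Irf levels was not tested.

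**Figure D3:**
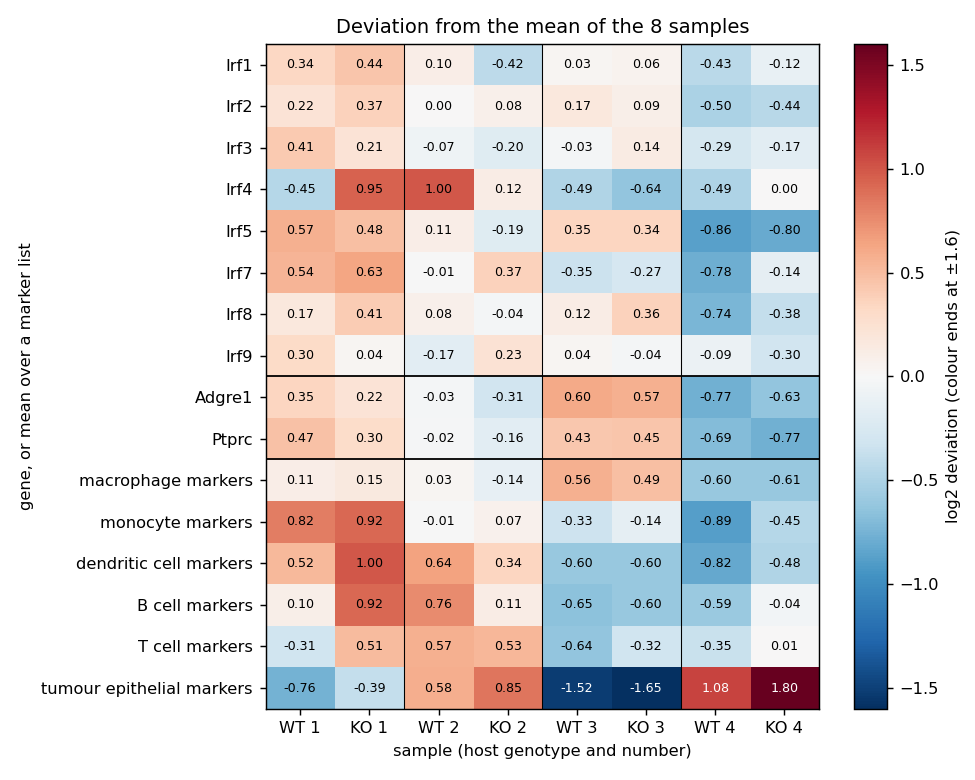
Log2 deviation of each Irf gene, of the sort marker genes Adgre1 and Ptprc and of the mean over each marker list from its own mean over the 8 samples, with samples ordered by number (numbers in the cells, red above and blue below the mean). Irf5 lies 0.86 and 0.80 below its mean in WT and KO sample 4, and Irf4 lies 1.00 and 0.95 above its mean in WT sample 2 and KO sample 1.

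The genes whose pattern over the 8 arrays was most like that of each member were found by Pearson's r among all tested genes with a symbol, as a description. The arrays share scaling and sample numbers, so high values are common. Irf5 was closest to Tmem50a (r = 0.997) and Acox3 (0.995), Irf2 to Nav1 and Rnasek (0.992 each), and Irf8 to Exosc5 (0.991) and Lcp2 (0.988), a signalling adaptor of leukocytes. Irf7 was closest to Stimate (0.988) and Serpinb10 (0.981), which differed between the groups by 0.29 and 0.47. Irf1 was closest to the proteasome subunit gene Psmd8 (0.984) and to Ppox (0.983), Irf3 to the DNA sensor gene Aim2 (0.969) and to Spidr (0.965). Irf4 was closest to the homeobox gene Hoxa7 (0.960) and to Elovl5 (0.946), and Irf9 to B4galt3 (0.941) and F8a (0.936). Within the family, Irf2 and Irf5 were the most alike (0.95), followed by Irf2 with Irf8 and Irf5 with Irf8 (0.93 each), while Irf4 was least like Irf9 (−0.21).

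The genes that act with or upstream of the family were not called between the genotypes either. Of 17 partners and repressors tested, 0 had a limma adjusted p under 0.05, with 8 higher and 9 lower and a median difference of −0.0020. The counts ran from 4 higher and 13 lower without WT sample 2 to 12 and 5 without WT sample 1, and were 13 and 4 scaled to Ptprc. PU.1 (Spi1) and Stat2, named for their role, differed by 0.074 and −0.011, and turned to −0.16 without WT sample 4 and 0.17 without WT sample 1. Crebbp, a coactivator that IRFs recruit, was the only one of the 17 partners without overlap between the groups, as were 2.12% of all genes. It read −0.22, −1.73, −3.03 and −2.85 across WT samples 1 to 4, and −3.18, −3.39, −4.20 and −4.36 across KO samples 1 to 4. All KO samples lay below all WT samples, by a difference of −1.83 (standard error 0.64), which did not pass (limma adjusted p = 0.9998) and was −1.25 without WT sample 1 and −1.20 with normexp background correction. Batf3, which partners IRF8 in dendritic cells, differed by −0.83, and by −0.48 without KO sample 4. Spib, a relative of PU.1, differed by 0.85, but by −0.090 with normexp background correction, and the ubiquitin ligase gene Trim21 by 0.12.

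Of 24 sensors, adaptors and kinases upstream of IRF3, IRF5 and IRF7, 0 were called, with 12 higher and 12 lower and a median difference of 0.0068. Without WT sample 4 the counts were 5 and 19. The members with the smallest unadjusted p were Ddx58, which encodes the RNA sensor RIG-I, at 0.31, Tlr9, a DNA sensor, at −0.18, the adaptor gene Ticam2 at −0.59 and the kinase gene Irak1 at −0.23. Of the other Ddx58 probes, one gave 0.26 and another −0.39, and with normexp background correction Ddx58 gave −0.024. Ticam2 was −0.22 without WT sample 3 and Irak1 −0.091 without KO sample 2. Of 16 interferons, receptors and signalling genes tested, 0 were called, with 8 higher and 8 lower and a median of 0.0010, and without WT sample 4 or without KO sample 1 the counts were 5 and 11. Usp18, which restrains the interferon receptor, differed by 0.40, the interferon genes Ifna5 and Ifna2 by 0.97 and 0.58, and Jak2 by −0.24 by one probe and 1.11 by another. The interferon probes were dim, and with normexp background correction Ifna5 and Ifna2 gave −0.25 and −0.34. Without WT sample 2 the first Jak2 probe gave −0.071.

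No gene on the lists of IRF targets passed the test, and leaving out WT sample 4 turned the sign of the median of both lists. Of 26 type I interferon response genes, targets of ISGF3 and IRF7, 19 were higher and 7 lower in the KO samples (48.8% of all genes were higher), with a median difference of 0.087 and 0 called. Without WT sample 4 the counts were 11 higher and 15 lower, and without KO sample 1 they were 13 and 13. Ifi44 read −0.032, 1.66, −0.0014 and 1.39 across WT samples 1 to 4, and 1.28, 2.59, 1.36 and 2.04 across KO samples 1 to 4. The KO sample was higher in every pair while the groups overlapped, and its difference of 1.07 (standard error 0.49) did not pass. The interferon-induced antiviral genes Oasl2 and Ifit1 differed by 0.31 and 0.29, or by 0.18 without WT sample 4 and 0.14 without KO sample 1. Ddx58, given above with its turn of sign, is on this list too. Of 28 interferon gamma response genes, targets of IRF1 and IRF8, 21 were higher and 7 lower, with a median of 0.13 and 0 called. Without WT sample 4 the counts were 10 higher and 18 lower, with a median of −0.077, and with array weights 14 and 14. Other settings went the other way. Without KO sample 4 the counts were 23 and 3 for the type I list and 24 and 4 for the interferon gamma list. Normexp background correction gave those same counts, with 38.5% of all genes higher. Scaling to Ptprc gave 22 and 4, and 25 and 3, with 63.4% of all genes higher. Gbp6, an interferon-induced GTPase, differed by 0.75 (standard error 0.25), or 0.30 with normexp background correction, the GTPase gene Iigp1 by 0.65, the peptide transporter gene Tap2 by 0.39 and the proteasome activator gene Psme2 by 0.29. Without WT sample 4 Iigp1 was 0.40 and Tap2 0.25. With the replicate number as a block Gbp6 had a limma adjusted p of 0.636 (unadjusted 0.0019). Over the 8 samples both lists were lowest in WT sample 4, at 0.47 and 0.66 below their own means. Beside them, 10 of 12 T cell markers and 9 of 10 NK cell markers were above 0, with medians of 0.51 and 0.59, and 0 of 9 endothelial markers were, with a median of −0.96. With normexp background correction 7 of 12 T cell and 6 of 10 NK cell markers were above 0, with medians of 0.069 and 0.22, and without KO sample 2 the NK cell median was 0.27. The T cell median was 0.33 without WT sample 3, and the endothelial median was −0.59 without WT sample 4 and −0.35 within slide 2. None of these markers was called, with or without the replicate number as a block. With that block 7 of 12 T cell, 6 of 10 NK cell and 4 of 9 endothelial markers had an unadjusted limma p under 0.05. Among the T cell markers, Cd6 of these was lower in the KO samples. Of the 2 target lists 1 of 26 and 3 of 28 genes had such a p, against 7.56% of all genes. The part of the markers in the target lists was not tested.

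The lists linked to IRF4 and IRF5 were not called. Of 16 alternative activation genes 10 were higher and 6 lower, with a median of 0.18, and without WT sample 4 the counts were 7 and 9. The lectin gene Mgl2 differed by 0.69, or 0.10 without WT sample 4, Cd209a by 0.62, Kdm6b, a histone demethylase that acts upstream of Irf4, by −0.29 and Klf4 by −0.22. With normexp background correction the dim Cd209a gave −0.54, Kdm6b −0.76 and Klf4 −0.034. Of 9 inflammatory cytokine genes 5 were higher and 4 lower, with a median of 0.033. The counts were 1 and 8 without KO sample 1, 2 and 7 without WT sample 4, and 7 and 2 without WT sample 2. Among them Il6 differed by 0.42, Tnf by −0.43, Il23a by 0.22 and Cxcl2 by −0.20. Without KO sample 1 Il6 was 0.18 and Il23a turned to −0.19, and without WT sample 2 Tnf was −0.14 and Cxcl2 −0.0033.

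**Figure D4:**
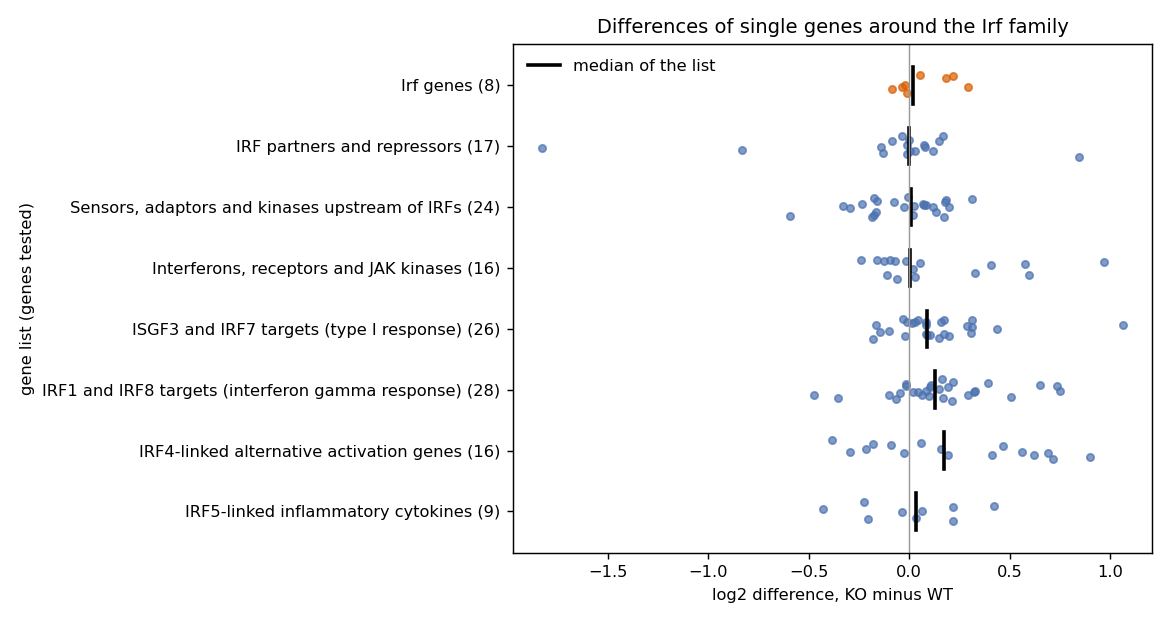
Difference between KO and WT samples for each tested gene of the Irf family and of 7 lists of genes around it (points, log2 scale), with the median of each list (black bars) and the number of genes tested in brackets. The medians lie between −0.0020 and 0.18, and the Irf genes lie between −0.085 and 0.29.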

How the data were processed

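Per the labels' protocols, the RNA samples were amplified and Cy3-labelled. Per the file headers, the authors extracted the spots of 1-colour Agilent mouse arrays with version 10.7.1.1 of Agilent Feature Extraction. The submitters' processing notes give 10.5. The deposited scanner files give intensity per spot as a background-corrected processed signal, a median signal and a local background. A deposited table of processed intensity values, of unstated scale and normalization, had column medians of 92 to 94 and followed quantile-normalized median signal (r = 0.9995 between array differences over 22256 probes). It was used as one alternative.

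Control and outlier spots of the scanner files were dropped, the log2 processed signals of a probe's spots were averaged, and the values were scaled by subtracting the 75th percentile per array. A probe was kept if at least 4 of 8 arrays read it well above background, and the brightest kept one stood for its gene. Accessions without version were named from a RefSeq table of GRCm38.p6 (25097 of 41174 probes). The groups were compared with limma 3.58.1 in R 4.3.3, two-sided, over 20851 genes with Benjamini-Hochberg adjustment, and single values by two-sided exact permutation. The test was checked on simulated data.

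Samples with the same number correlated in their deviations from the group means at 0.30, 0.14, 0.70 and 0.51 for numbers 1 to 4, all over the limit of 0.1, so the numbers were taken as pairing the samples. This rests on the data, as the labels do not say what a number shares. Samples with different numbers were not set against that limit. In their levels, samples numbered 1, 3 and 4 were closest to the same-numbered sample of the other genotype (r = 0.962, 0.986 and 0.953). KO sample 2 was closest to WT sample 2 among the WT samples (0.936). WT sample 2 was closer to KO samples 1 and 4 (0.943 each), so number 2 is the least certain pair.

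The members and lists were chosen with earlier results of these data known. All 8 Irf genes were named with every probe, up to 4 genes per pathway list by smallest unadjusted p, the 2 most similar genes per member, up to 3 of the brightest markers per cell type, and Adgre1, Ptprc and Atf3. Of the markers this allows, only some are given, and some genes of the lists are not reported here. Spi1 and Stat2 fall outside this rule and were chosen after their values were seen. Alternatives covered background correction, scaling, filters, the deposited table, slide, the replicate block, variance models, probe choice and each sample left out.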

Additional observations from a re-analysis of the deposited data

Results flagged for a closer look

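WT sample 2 stood apart from the other WT samples for Irf4, at 1.95 against 0.50 in the next highest, so that the gap took up 0.976 of the range of the 4 samples. WT sample 4 stood apart for Irf8 by its brighter probe, at 2.54 against 3.36 in the next lowest, with a gap of 0.895 of the range. Both gaps exceed Dixon's 95% critical value for 4 samples. Of 22 groups of 4 samples checked (11 probes in each genotype), 2 exceeded it, and chance flags about 1 group in 20.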

How the results depend on the processing

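No Irf gene was called under any alternative, and Irf7 was higher in the KO samples under every alternative run. Of 187 values of the 8 members under alternatives, 154 kept their direction, 33 turned and none crossed the threshold. Blocking on the replicate number gave a limma count of calls of 0 over all genes and 0 among the Irf genes, as without the block, and 1577 genes had an unadjusted p under 0.05 against 697. The block changed no call. Normexp background correction moved the median of all genes to −0.14, and 38.5% of all genes were higher. With it 8 Irf genes were higher, with Irf1 at 0.15, Irf3 at 0.077, Irf5 at 0.039 and Irf9 at 0.099. Scaled to Ptprc, an alternative chosen after seeing the data, 8 were higher, against 63.4% of all genes. Irf1 was then at 0.074, Irf3 at 0.082, Irf5 at 0.0083 and Irf9 at 0.055. Within slide 1 Irf9 turned to 0.063, and within slide 2 Irf1 to 0.17, Irf2 to −0.0097, Irf3 to 0.14 and Irf5 to 0.026. Array weights turned Irf2 to −0.017, the mean over probes Irf1 to 0.039, and its other probe alone gave 0.097. Without both samples numbered 4, also chosen after seeing the data, Irf9 turned to 0.018. With each sample left out in turn, 2 to 8 Irf genes were higher, and the difference ranged from −0.17 to 0.12 for Irf1, −0.10 to 0.21 for Irf2, −0.11 to 0.12 for Irf3, −0.063 to 0.59 for Irf4, −0.39 to 0.17 for Irf5, 0.084 to 0.52 for Irf7, −0.034 to 0.34 for Irf8 and −0.12 to 0.056 for Irf9. Over all genes 0 or 1 was called, the 1 without KO sample 1. The cause of these changes was not tested. The number of arrays limits the precision.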
